A study of Homo sapiens with 3 samples.

Results

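The genes described here are the Notch receptors NOTCH1, NOTCH2, NOTCH3 and NOTCH4, the ligands JAG1 and DLL1, and the HES/HEY target genes HES1, HEY1, HEY2 and HEYL. They were listed by name, with earlier results of these data known. Of the 10 genes, 9 were found among the 14836 named genes of the deposited table, each through 1 array feature, and expression of NOTCH4 is not analysed here. They were measured in floating spheres (sarcospheres) of the human osteosarcoma line MNNG/HOS, obtained by treating HOS cells with the carcinogen MNNG, on NimbleGen one-colour (Cy3) arrays. All 3 cultures grew for 5 days in DMEM/F12 without serum, and only the suspended spheres were collected. The first was left untreated, the second was given 4 ng/mL of TGF-beta1, and the third grew under hypoxia; the sources used here do not give the oxygen level. Each condition is 1 culture on 1 array, so no replicate error exists, no test across samples is possible, and higher or lower here compares single arrays.

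Notch signalling passes between touching cells. A ligand of the Jagged or Delta family on one cell binds a Notch receptor on its neighbour, the receptor is cut by an ADAM protease and then by gamma-secretase, and the freed intracellular part joins the DNA-binding protein RBPJ in the nucleus. The complex switches on HES and HEY genes, whose products are basic helix-loop-helix repressors. In bone, Notch activity is known to hold osteoblast progenitors in an undifferentiated state, and the pathway has been studied in osteosarcoma for its links to invasion and stem-like growth.

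RBPJ binds DNA through a short core, and the promoters of the target genes are the best-known place to see it. The promoter windows of HES1, HEYL and HEY2 are shown because each holds the core at 2 places; HES1 and HEYL were the listed genes counted as higher with TGF-beta1, and HEY2 was dim on all 3 arrays. Each sequence runs 5' to 3' on the gene's own strand, from 250 bases before the gene's start through the first 30 bases of the gene, as given by RefSeq for GRCh38.p14. Capitals mark the RBPJ core TGGGAA, or TTCCCA where it lies on the opposite strand. The HES1 window is chr3:194135898-194136177 on the plus strand, the HEYL window chr1:39639614-39639893 on the minus strand, and the HEY2 window chr6:125749382-125749661 on the plus strand.
HES1: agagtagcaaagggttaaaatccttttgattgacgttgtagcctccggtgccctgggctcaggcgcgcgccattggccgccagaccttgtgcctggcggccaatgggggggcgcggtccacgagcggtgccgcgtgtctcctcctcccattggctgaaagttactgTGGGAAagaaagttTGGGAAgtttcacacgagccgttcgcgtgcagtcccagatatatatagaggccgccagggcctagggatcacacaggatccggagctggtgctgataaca
HEYL: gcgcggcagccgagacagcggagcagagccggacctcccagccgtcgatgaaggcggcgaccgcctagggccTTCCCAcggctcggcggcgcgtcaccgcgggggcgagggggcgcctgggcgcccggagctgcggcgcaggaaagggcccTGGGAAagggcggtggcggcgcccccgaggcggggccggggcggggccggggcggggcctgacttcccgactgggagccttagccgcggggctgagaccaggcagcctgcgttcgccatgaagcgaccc
HEY2: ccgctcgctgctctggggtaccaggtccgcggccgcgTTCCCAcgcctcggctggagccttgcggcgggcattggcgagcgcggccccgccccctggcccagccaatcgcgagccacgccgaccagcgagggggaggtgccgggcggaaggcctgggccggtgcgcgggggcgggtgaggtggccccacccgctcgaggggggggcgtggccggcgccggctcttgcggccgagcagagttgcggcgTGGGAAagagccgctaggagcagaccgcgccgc

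In HES1 both copies of the core lie on the gene's strand, with first bases at -84 and -70 relative to the gene's start, where the start itself is +1. In HEYL they begin at -178 on the opposite strand and at -99 on the gene's strand. In HEY2 they begin at -213 on the opposite strand and at -3 on the gene's strand. Windows of 300 bases, which reach 50 bases into the gene, were searched for 8 of the 10 genes (the 4 receptors, JAG1, HES1, HEY2 and HEYL). The core was in 3 of the 8, and its letters were in no receptor window and not in that of JAG1. Of all 27305 promoter windows of the same length, 24.3% hold the core and 3.81% hold it at 2 or more places.

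**Figure D1:**
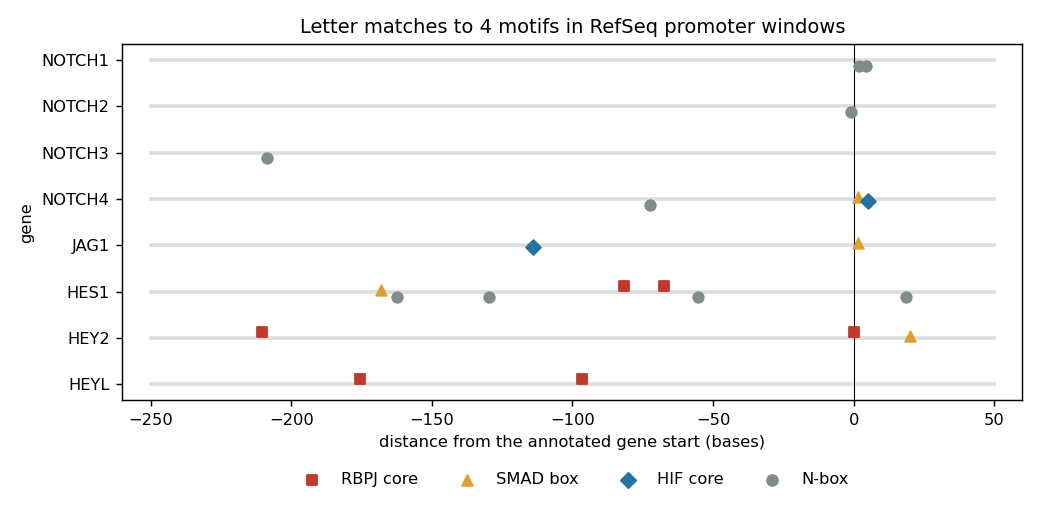
Places of 4 short motifs in the RefSeq promoter windows of 8 Notch genes, as the distance in bases from the annotated gene start (0 line); each symbol is a match of the letters on either strand. The RBPJ core (squares) occurs at 2 places in each of HES1, HEY2 and HEYL and at none in the other 5 windows.

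The other motifs searched on both strands were the SMAD box CAGAC, the HIF core ACGTG, the N-box CACNAG that HES proteins bind, and the E-box CACGTG. Of these the E-box contains the HIF core. The SMAD box was in 4 of the 8 windows (NOTCH4, JAG1, HES1 and HEY2), against 45.0% of all windows. The HIF core was in 2 of the 8 (NOTCH4 and JAG1), against 21.6% of all windows. The N-box was in 5 of the 8, the 4 receptors and HES1, against 38.0%, and HES1, a gene known to repress itself, held it at 4 places. The E-box was in 0 of the 8, against 7.43%. These are matches of letters and do not show binding.

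The values are the authors' intensities on a linear scale, in which no value is below 50. The median named gene stood at 410 on the untreated array, 402 on the TGF-beta1 array and 427 on the hypoxia array. A gene is called above the floor in a comparison where its value reached the array's median on the brighter array of the pair. Without detection calls, a dim value cannot be told from background. Differences are in log2 units, and a gene is counted as higher or lower at 1.5-fold or more above the floor. Since each Notch gene has a single feature, the nearest measure of error is the disagreement between features of the same gene among the 1118 genes with several. The SD of the log2 difference between such features ranged from 0.18 to 0.72 over 5 intensity bins and 3 comparisons, and was smallest in the brightest bin of each comparison. It is called the feature SD below, and it leaves out variation between cultures.

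Several markers were checked for the labelled cells. VIM, an intermediate filament of mesenchymal cells, stood between 29664 and 34423, and RUNX2, the osteoblast transcription factor, between 988 and 1336. Of the 7 measured osteoblast and mesenchymal genes, 5 reached the median on each array. SP7 and ALPL, a transcription factor and the alkaline phosphatase of osteoblasts, were dim on all 3 arrays (63.4 to 81.8). None of the 5 measured endothelial genes and none of the 5 measured blood and immune genes reached the median on any array (50.2 to 170). Their summed intensity was 388, 463 and 405 for endothelial genes and 312, 340 and 307 for blood genes on the untreated, TGF-beta1 and hypoxia arrays. Of 7 TGF-beta response genes above the floor, 4 were higher with TGF-beta1 and 3 under hypoxia, against 12.6% and 8.64% of all genes above the floor. Of 8 hypoxia response genes above the floor, 2 were higher under hypoxia, against the same 8.64%. These were ADM (log2 difference 1.19) and ANGPTL4, which stood at 156 untreated and 645 under hypoxia and was above the floor only through the hypoxia array. Of the 9 measured hypoxia response genes, 7 were brighter under hypoxia (NDRG1 by only 0.02), against 53.7% of all named genes. The other 2 were dimmer, PDK1 (-0.51) and BNIP3 (-0.14).

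**Figure D2:**
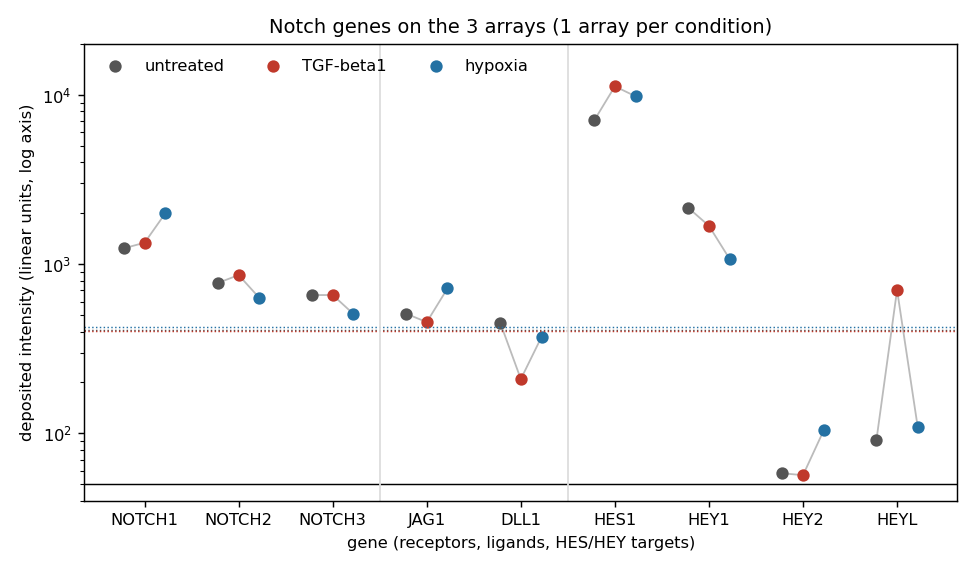
Deposited intensity (log axis) of the 9 measured Notch genes on the untreated, TGF-beta1 and hypoxia arrays, 1 point per array, with vertical lines between receptors, ligands and HES/HEY targets. Dotted lines are the median gene of each array (402 to 427) and the solid line is 50, below which the table holds no value; HEYL crosses the median line on the TGF-beta1 array and lies near 100 on the other two.

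With TGF-beta1, the target genes HEYL and HES1 were higher and the ligand DLL1 was lower than on the untreated array, while the 3 measured receptors were within 1.5-fold. In RNA from whole spheres, fewer cells expressing a gene and less RNA per cell cannot be told apart. Above the floor, 2 of 8 listed genes were higher and 1 was lower, against 12.6% and 11.5% of the 7950 genes above the floor. The median log2 difference of the 9 measured genes was 0.001, against -0.003 over all named genes, so there was no common shift of the list. The receptors gave the narrowest range of the 3 roles, from 0.00 to 0.15.

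Under hypoxia, the receptor NOTCH1 was higher and the target gene HEY1 was lower than on the untreated array. Above the floor, 1 of 7 listed genes was higher and 1 was lower, against 8.64% and 5.69% of 7822 genes. The median over the 9 genes was 0.26, against 0.04 over all named genes, but it is the value of HEYL, which was dim on both arrays. With 1 or 2 genes each way, these counts only describe the arrays. Both comparisons share the untreated array, so they are not independent of each other.

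Set directly against hypoxia, the TGF-beta1 array had 2 of 7 listed genes higher (HEYL and HEY1) and 1 lower (JAG1), against 13.2% and 15.3% of 7943 genes. The median over the 9 genes was 0.20, against -0.03 over all named genes. This comparison reuses both treated arrays and adds no new measurement.

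**Figure D3:**
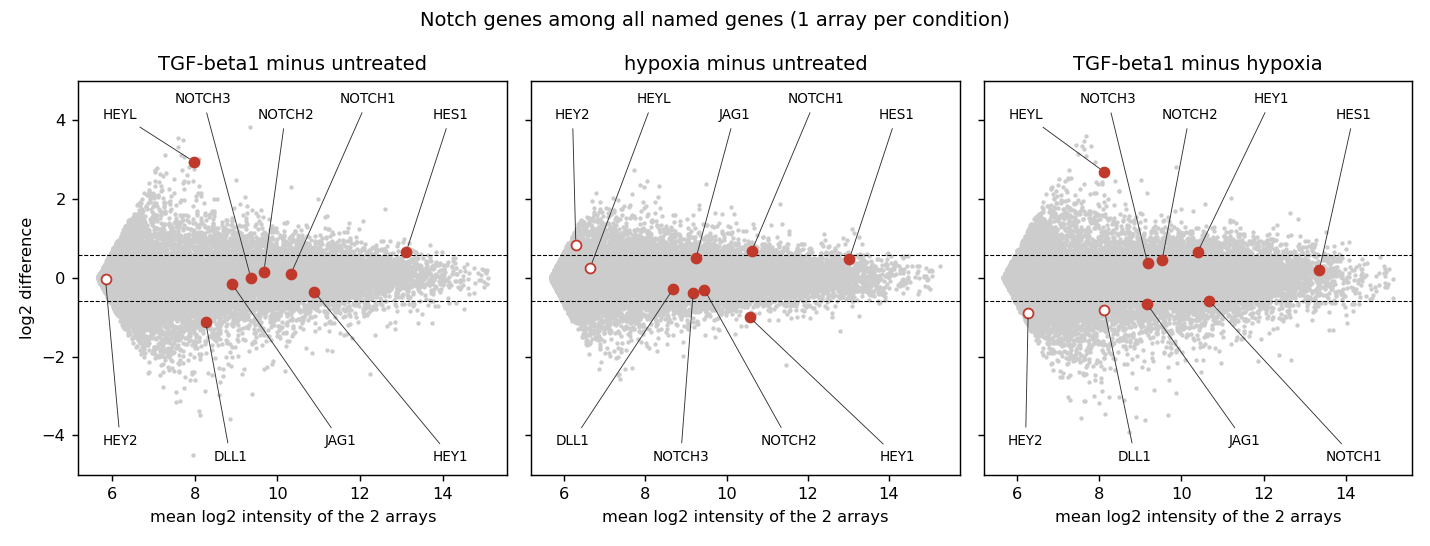
Log2 difference (vertical axis) against mean log2 intensity (horizontal axis) for the 3 pairs of arrays, with all named genes in grey and the 9 Notch genes in red; open circles are below the floor and dashed lines mark 1.5-fold. HEYL stands at 2.95 and 2.70 in the panels that hold the TGF-beta1 array and at 0.26 in the panel that does not.

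The receptors were measured at steady levels with TGF-beta1. NOTCH1 (feature NM_017617), the receptor known for activating mutations in T-cell leukaemia, stood at 1242 untreated, 1339 with TGF-beta1 and 1998 under hypoxia. The hypoxia array was thus the high one and the other two lay close together. The hypoxia difference was 0.69 (1.61-fold), with a feature SD of 0.35, and 5.63% of genes above the floor had one at least as large in that direction. The TGF-beta1 difference was 0.11, less than the feature SD of 0.29.

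NOTCH2 (NM_024408), a broadly expressed receptor known from inherited bone disease, stood at 775 untreated, 862 with TGF-beta1 and 632 under hypoxia. NOTCH3 (NM_000435), known as the receptor of vascular smooth muscle and pericytes, stood at 657 untreated, 657 with TGF-beta1 and 508 under hypoxia. For both of these receptors the hypoxia array was the low one, the opposite of NOTCH1. The hypoxia differences were -0.30 for NOTCH2 (feature SD 0.35) and -0.37 for NOTCH3 (feature SD 0.43), each less than its feature SD. NOTCH3 is also a pericyte marker. Of the 6 measured pericyte and smooth muscle genes, which include NOTCH3, 3 reached the median on the untreated and hypoxia arrays. On the TGF-beta1 array 4 did. CSPG4 stood between 1257 and 1697 and PDGFRB between 970 and 1212, while MCAM (175 to 279) and MYH11 (104 to 188) were dim on all 3 arrays.

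Both ligands were dimmer with TGF-beta1 than on each of the other arrays, but only DLL1 was counted against untreated and only JAG1 against hypoxia. DLL1 was below the floor in the comparison of TGF-beta1 with hypoxia. JAG1 (NM_000214), a ligand of the Jagged family that stromal and endothelial cells present, stood at 510 untreated, 455 with TGF-beta1 and 719 under hypoxia. The hypoxia array was the high one, with a difference from untreated of 0.50 (1.41-fold) and a feature SD of 0.43. JAG1 was lower with TGF-beta1 than under hypoxia by a log2 difference of -0.66, against a feature SD of 0.50. That last call is near the threshold and was lost with the arrays centred on their medians (-0.54) and with log2(value + 100) (-0.56).

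DLL1 (NM_005618), a ligand of the Delta family, stood at 452 untreated, 209 with TGF-beta1 and 372 under hypoxia. The TGF-beta1 array was the low one, at less than the median gene. The difference from untreated was -1.11 (2.16-fold lower) with a feature SD of 0.49, and 3.04% of genes above the floor were lower by as much or more. DLL1 was above the floor only through the untreated array. Its hypoxia difference was -0.28, less than the feature SD of 0.43. DLL1 was lower with TGF-beta1 than under hypoxia by a log2 difference of -0.83 (1.77-fold lower), with a feature SD of 0.50. That difference was not counted only because both values were below the median gene.

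Among the target genes, HEYL had the widest range over the 3 arrays. HEYL (NM_014571), a HEY-family repressor reported as a target of NOTCH3 in vascular smooth muscle, stood at 91.0 untreated, 704 with TGF-beta1 and 109 under hypoxia. The TGF-beta1 array alone was above the median gene, and the other two were dim. The log2 difference was 2.95 (7.74-fold) against untreated and 2.70 (6.48-fold) against hypoxia, with feature SDs of 0.49 and 0.50. Of the 7950 genes above the floor, 10, HEYL included, had a difference from untreated at least as large in that direction. HEYL was above the floor only through the array on which it was high, so it had to differ in order to be counted. Its size is not settled, because the untreated and hypoxia values were dim: with log2(value + 100) the difference from untreated was 2.07 and that from hypoxia 1.95.

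HES1 (NM_005524), the general Notch target whose promoter is printed above, stood at 7066 untreated, 11241 with TGF-beta1 and 9810 under hypoxia. The untreated array was the low one. The difference was 0.67 (1.59-fold) with TGF-beta1 and 0.47 (1.39-fold) under hypoxia, and the feature SDs at this intensity were 0.18 and 0.28. With TGF-beta1, 9.61% of genes above the floor had a difference at least as large in that direction. The TGF-beta1 and hypoxia arrays differed by 0.20, less than the feature SD of 0.31. Both HES1 differences rest on the same untreated value, and the part of that array in them was not tested.

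HEY1 (NM_012258), a HEY-family repressor that also responds to BMP signalling in osteoblasts, stood at 2154 untreated, 1684 with TGF-beta1 and 1073 under hypoxia. The values were in the order untreated, TGF-beta1, hypoxia. The hypoxia difference was -1.005 (2.01-fold lower), with a feature SD of 0.35, and 75 of 7822 genes above the floor (0.959%) were lower by as much or more. The TGF-beta1 difference was -0.35, with a feature SD of 0.18, within 1.5-fold. TGF-beta1 was higher than hypoxia by 0.65 (feature SD 0.38).

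HEY2 (NM_012259), the HEY-family repressor of arterial and cardiac development, stood at 58.2 untreated, 56.7 with TGF-beta1 and 104 under hypoxia. All 3 values were far below the median gene, so its hypoxia difference of 0.84 is not counted as higher. The untreated and TGF-beta1 values were near the limit of 50. Of the other HEY genes, HEYL was highest with TGF-beta1 and HEY1 on the untreated array. HES1 and HEY1 differed from untreated in opposite directions in both comparisons, 0.67 and -0.35 with TGF-beta1 and 0.47 and -1.005 under hypoxia.

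For the 2 listed genes with the widest range over the arrays, HEYL and DLL1, the genes with the nearest pattern were found by the Euclidean distance between log2 values centred on each gene's mean over the 3 arrays, among 8157 genes. The nearest to HEYL were LARGE2 (distance 0.20), CDHR1 (0.21) and CNTN5 (0.29). All 3 were dim untreated (68.9 to 96.3) and stood between 596 and 779 with TGF-beta1. The nearest to DLL1 were LDAF1 (0.01), SERPINF1 (0.03) and TNC (0.03). TNC, the matrix protein tenascin C, stood at 16180 untreated, 7358 with TGF-beta1 and 12924 under hypoxia. With 3 arrays many genes share any given pattern, and the distance carries no test.

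The wider pathway was described through 72 further genes in 8 groups, of which 67 were measured. With TGF-beta1, 3 of 40 members above the floor were higher and 6 lower, against the same 12.6% and 11.5%, and the median over the 67 was -0.06. Under hypoxia, 7 of 41 were higher and 1 was lower, against the same 8.64% and 5.69%, and the median was 0.15. For TGF-beta1 minus hypoxia, 2 of 42 were higher and 11 lower, against the same 13.2% and 15.3%, with a median of -0.22. The counts were 2 and 11 with quantile normalization (14.9% and 13.7% of all genes) and 1 and 12 with loess centring (13.6% and 15.2%). With the arrays centred on their medians they were 7 and 7, where the shares of all genes were 19.1% and 11.3%. On the deposited values, the median over all named genes was -0.003 with TGF-beta1, 0.04 under hypoxia and -0.03 for TGF-beta1 minus hypoxia. The medians over the 67 include genes that were dim on both arrays.

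**Figure D4:**
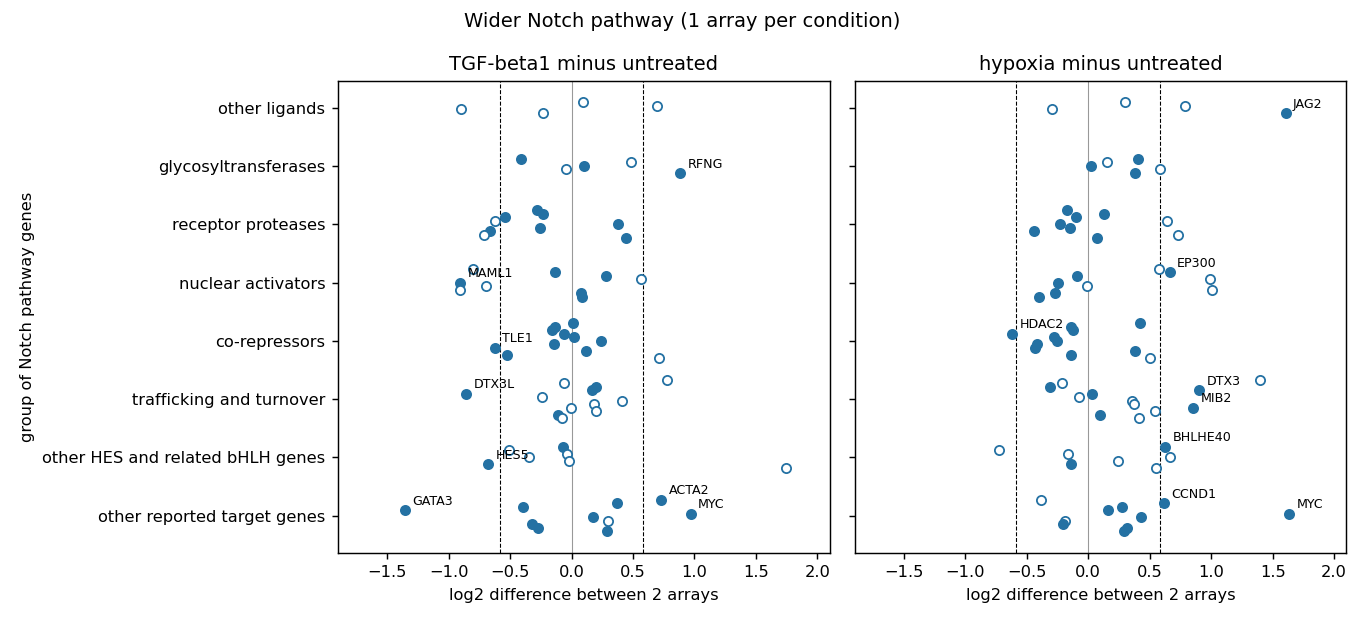
Log2 difference from the untreated array (horizontal axis) for the 67 measured genes of the wider Notch pathway in 8 groups (vertical axis), with TGF-beta1 on the left and hypoxia on the right; 1 point per gene, open where dim on both arrays, dashed lines at 1.5-fold, and names for the counted genes that the text describes. JAG2 and MYC stand at 1.61 and 1.64 under hypoxia and GATA3 at -1.35 with TGF-beta1.

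Among the other ligands, JAG2, the second Jagged ligand, stood at 331 untreated, 281 with TGF-beta1 and 1006 under hypoxia. The hypoxia array was high, with a difference of 1.61, and JAG2 was above the floor through that array alone. JAG1 and JAG2 were thus both brightest under hypoxia, at 0.50 and 1.61 above untreated. The other 3 measured ligands, DLL3, DLL4 and DLK2, were dim on all 3 arrays (72.6 to 375).

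The fringe and O-fucose enzymes set which ligands a receptor binds. RFNG, a fringe N-acetylglucosaminyltransferase, stood at 417 untreated, 769 with TGF-beta1 and 542 under hypoxia, a difference of 0.88 with TGF-beta1. It was the 1 counted gene of the 3 above the floor with TGF-beta1, where 12.6% of all genes were higher and 11.5% lower, and 0 of 3 were counted under hypoxia, where the shares were 8.64% and 5.69%. LFNG, another fringe enzyme, stood at 768, 577 and 1016, and POFUT1, which adds the O-fucose, differed by no more than 0.10 in any of the 3 comparisons.

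Among the receptor proteases, 0 of 7 genes above the floor were counted under hypoxia, against the same 8.64% higher and 5.69% lower. ADAM10, which makes the first cut, differed by -0.28 with TGF-beta1 and -0.17 under hypoxia. NCSTN, the gamma-secretase subunit nicastrin, stood at 2251 untreated, 1887 with TGF-beta1 and 2034 under hypoxia.

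In the nucleus, RBPJ itself stood at 4159 untreated, 4380 with TGF-beta1 and 3445 under hypoxia, within 1.5-fold throughout. MAML1, the co-activator that completes the RBPJ complex, stood at 1022, 546 and 861, a TGF-beta1 difference of -0.90. EP300, a histone acetyltransferase, differed by 0.66 under hypoxia. MAML3, a related co-activator, was dim at 175, 93.2 and 350, so its hypoxia difference of 1.003 is not counted.

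Of the co-repressors that keep target genes off, 1 of 10 above the floor was lower and 0 were higher in each comparison with untreated. Of all genes above the floor, 11.5% were lower and 12.6% higher with TGF-beta1. Under hypoxia the shares were 5.69% lower and 8.64% higher. TLE1, a Groucho-family co-repressor, differed by -0.63 with TGF-beta1, and HDAC2, a histone deacetylase, by -0.62 under hypoxia. TLE4, a relative of TLE1, was dim and differed by 0.71 with TGF-beta1.

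In the trafficking and turnover group, DTX3L, a ubiquitin ligase of the Deltex family, differed by -0.85 with TGF-beta1. Under hypoxia DTX3, of the same family, was higher by 0.90. MIB2, a ligase that drives ligand uptake, stood at 265 untreated, 263 with TGF-beta1 and 478 under hypoxia, and was above the floor only through the hypoxia array. AAK1, a kinase of endocytosis, had the largest difference of the group under hypoxia, 1.40, but was dim on all arrays (89.8 to 237).

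Of the other HES and related genes, HES5, a classical Notch target of neural progenitors, stood at 1570 untreated, 982 with TGF-beta1 and 1427 under hypoxia. Its TGF-beta1 difference was -0.68, against 0.67 for HES1. HES6, known as an antagonist of HES1, stood at 93.5, 313 and 137, so that its TGF-beta1 value was the highest, as for HEYL, but it was below the median gene on all 3 arrays. BHLHE40, a related repressor also known as a hypoxia-induced gene, stood at 4524, 4306 and 6993, a hypoxia difference of 0.63.

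The 10 other genes reported as Notch targets in various cell types did not all share a direction. With TGF-beta1, 6 were brighter and 4 dimmer, and under hypoxia 7 and 3. Of all named genes, 49.7% and 53.7% were brighter. MYC stood at 478 untreated, 935 with TGF-beta1 and 1485 under hypoxia, differences of 0.97 and 1.64. GATA3, a zinc-finger transcription factor that Notch induces in T cells, stood at 1281, 501 and 1431, a TGF-beta1 difference of -1.35. ACTA2, smooth muscle actin, stood at 393, 653 and 301, with 0.73 for TGF-beta1. ACTA2 was above the floor only through the TGF-beta1 array, on which it was high. NRARP, a feedback inhibitor made in response to Notch, was dim on all arrays (130 to 182). CCND1, the cyclin D1 gene, differed by 0.61 under hypoxia.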

How the data were processed

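Total RNA of 3 MNNG/HOS cultures was labelled with Cy3 by a NimbleGen one-colour kit and hybridised to 1 array each, per the labels' protocols. The deposited intensity values are linear, in 38572 features and 3 columns. The sources used here do not give the background correction, probe summary, normalization, filters or genome build. The column medians (383, 363 and 395) are close, so no further normalization was applied.

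Features were named from the platform annotation, updating symbols by Entrez identifier (15623 features), or through a RefSeq accession match to GRCh38.p14 (593), and 22356 features stayed unnamed. These could hold further transcripts of the genes. No feature had several symbols. Values were log2 transformed without a pseudocount and averaged over a gene's features (Python 3.11.15, pandas 2.3.3). The fold count and the motif search were tested on simulated data.

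The members and lists were chosen with earlier results of these data known. All listed genes are named. In each wider group, genes at least 2-fold from untreated above the floor are named, or else the largest above the floor and over all, and the rest as context after their values were seen. One result of the wider pathway is not reported here. The planned protein comparison was not made.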

Additional observations from a re-analysis of the deposited data

How the results depend on the processing

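Of 189 recomputed single-gene differences, 187 moved by less than the feature SD. Those of HEYL against untreated and hypoxia fell to 2.07 and 1.95 with log2(value + 100), and no counted difference changed sign. The 189 include settings that took the median or the brightest of a gene's features. These could not move a gene with a single feature. Platform symbols without update also left the values unchanged, so the 187 overstates the stability. The small TGF-beta1 differences of NOTCH3 (-0.02 to 0.08) and HEY2 (-0.04 to 0.04) changed sign with the scaling. Counts of listed genes with a 2-fold threshold were 1 higher with TGF-beta1, 0 higher under hypoxia, and 1 higher and 0 lower for TGF-beta1 minus hypoxia. The shares of all genes above the floor were 3.2%, 1.6%, and 3.3% and 5.7%. With no floor, 2 listed genes were higher under hypoxia and 3 lower for TGF-beta1 minus hypoxia, against 11.2% and 17.5% of all genes. With a floor at the 60th percentile, 0 listed genes were lower with TGF-beta1, since DLL1 then dropped out, against 9.91% of all genes. For TGF-beta1 minus hypoxia, the count of lower listed genes was 0 with median centring and with log2(value + 100) and 2 with loess centring. The shares of all genes lower were 11.3%, 13.0% and 15.2%. The median of the listed genes was 0.32 with median centring. The hypoxia median was 0.13 with log2(value + 100). In the wider pathway, no floor gave 7 higher and 12 lower with TGF-beta1, 14 and 2 under hypoxia, and 20 lower for TGF-beta1 minus hypoxia. The shares of all genes were then 13.2% and 15%, 11.2% and 8.80%, and 17.5% lower. For the same wider genes the 2-fold threshold gave 0 and 1, 2 and 0, and 1 and 2. The shares of all genes were 3.2% and 3.9%, 1.6% and 0.98%, and 3.3% and 5.7%. For TGF-beta1 minus hypoxia, median centring gave 7 and 7 wider genes, loess centring 1 higher and the 60th percentile floor 1 higher. The shares of all genes were 19.1% and 11.3%, 13.6% higher and 12.8% higher. Other causes were not tested. No paired analysis was possible because each group has 1 array. The number of arrays and the lack of detection calls limit the precision.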
